A study of Mus musculus with 6 samples.

Results

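The caveola coat genes are Cav1, Cav2 and Cav3, which encode the caveolins, and Cavin1, Cavin2 and Cavin3, which encode 3 of the cavins. They were chosen by name, as 6 of 21883 protein-coding mouse genes. Their data are the ATAC-seq peaks that overlap each gene body or the 50 kb on either side of it, which formed 60 of the 85174 regions obtained when the peaks of all libraries were merged at 1 base of overlap. ATAC-seq reads out where the Tn5 transposase can reach and cut the DNA, which marks accessible chromatin. Open chromatin was compared between cells in which Arid3a, an AT-rich interaction domain DNA-binding protein, was targeted by RNA interference and cells given a negative control. The knockdown group was 3 libraries, each from cells that received a different siRNA (si-Arid3a#1, si-Arid3a#2 and si-Arid3a#3), here knockdown 1 to 3. The control group was 3 libraries labelled Negative Control, here control 1 to 3. All 6 came from primary mouse vascular smooth muscle cells bought from a supplier, with 50000 cells per assay, 24 h after transfection. No genotype, strain or age is given in the labels. Knockdown libraries can thus differ among themselves by siRNA. Whether libraries of 1 group are separate cultures is not stated, so each p-value speaks only of the spread between these 6 samples, which could be technical. The series text calls the cells knockdown lines, while the protocol describes transient transfection. The protocol also mentions angiotensin II without naming the libraries concerned, and no comparison here uses it.

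Caveolae are small flask-shaped pits of the plasma membrane, abundant in smooth muscle, endothelium and fat. Caveolins are hairpin membrane proteins that build the pit, and cavins are cytosolic proteins that coat it from the inside. Caveolin-1 and cavin-1 are needed for caveolae in non-muscle and smooth muscle cells, and caveolin-3 takes the part of caveolin-1 in skeletal and heart muscle. Caveolin-2 joins caveolin-1 in mixed oligomers. Cavin-2 helps to shape the membrane, and cavin-3 has been linked to the movement of caveolae.

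The start sites are shown first, because the peaks there separate Cav3 from the other members with a promoter entry. The RefSeq promoter table of GRCm38.p6, the assembly of mm10, had an entry for 5 of the 6 members. Each line gives 300 bases, 250 before and 50 after the start, 5′ to 3′ on the gene's own strand. Capitals mark every match, on either strand, to GGGCGG (the GC box), TGANTCA (the AP-1 motif), CCAAT (the CCAAT box), GGAATG (the TEAD motif) and TATAAA (the TATA box). The CArG box, and ATTAAA and, for the same AT-rich preference of Arid3a, ATCAAA were searched too. Cav1 is shown at the upstream of its 2 annotated starts (chr6:17306085-17306384, plus strand), Cav2 at chr6:17280935-17281234 (plus), Cav3 at chr6:112459255-112459554 (plus), Cavin1 at chr11:100970568-100970867 (minus) and Cavin2 at chr1:51288876-51289175 (plus).
Cav1: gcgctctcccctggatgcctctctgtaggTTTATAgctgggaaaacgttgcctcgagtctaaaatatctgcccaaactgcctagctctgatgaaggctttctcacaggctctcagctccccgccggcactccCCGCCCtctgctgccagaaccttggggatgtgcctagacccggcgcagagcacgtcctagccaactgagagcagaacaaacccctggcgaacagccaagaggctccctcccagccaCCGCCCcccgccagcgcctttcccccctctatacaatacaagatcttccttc
Cav2: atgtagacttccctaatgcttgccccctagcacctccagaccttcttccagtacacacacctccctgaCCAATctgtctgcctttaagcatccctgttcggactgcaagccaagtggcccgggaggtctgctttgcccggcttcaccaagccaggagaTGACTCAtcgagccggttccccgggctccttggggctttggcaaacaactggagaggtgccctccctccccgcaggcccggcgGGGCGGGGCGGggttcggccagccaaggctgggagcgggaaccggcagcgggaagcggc
Cav3: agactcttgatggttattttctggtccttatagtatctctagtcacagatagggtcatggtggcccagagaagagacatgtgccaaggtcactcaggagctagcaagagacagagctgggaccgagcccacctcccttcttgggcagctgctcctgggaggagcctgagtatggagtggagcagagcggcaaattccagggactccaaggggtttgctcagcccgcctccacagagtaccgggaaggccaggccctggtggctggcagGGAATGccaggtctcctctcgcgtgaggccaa
Cavin1: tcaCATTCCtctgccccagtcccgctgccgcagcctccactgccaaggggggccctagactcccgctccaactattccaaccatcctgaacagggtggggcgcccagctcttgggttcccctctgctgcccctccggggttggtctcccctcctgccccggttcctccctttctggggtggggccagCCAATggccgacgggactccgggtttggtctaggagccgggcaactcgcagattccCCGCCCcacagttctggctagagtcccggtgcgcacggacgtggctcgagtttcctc
Cavin2: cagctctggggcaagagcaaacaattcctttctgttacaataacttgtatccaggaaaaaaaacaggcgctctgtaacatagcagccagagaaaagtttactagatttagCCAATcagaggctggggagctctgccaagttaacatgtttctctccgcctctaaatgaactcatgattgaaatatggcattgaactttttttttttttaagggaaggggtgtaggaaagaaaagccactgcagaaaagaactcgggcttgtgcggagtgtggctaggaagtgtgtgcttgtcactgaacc

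The Cav1, Cav2 and Cavin1 windows held a GC box close to the start, and those of Cav3 and Cavin2 held none. Positions are those of the match's leftmost base as printed, with the start as 1 and the base before it as −1. Cav1 had GC boxes at −118 and −2, and Cav2 had 2 at −9 and −4 that overlapped by their end base. Cavin1 had 1 at −7. CCAAT stood at −182 in Cav2, −63 in Cavin1 and −140 in Cavin2. Cav2 alone of the 5 held an AP-1 match, at −92. TEAD matches stood at 19 in Cav3 and −247 in Cavin1, and a TATAAA match at −221 in Cav1. None of the printed windows held an AT-rich match or a CArG box, and neither did the window at the downstream Cav1 start, which held none of the letters searched. Of all 32817 promoter windows of the same length, 35.6% held a GC box, 37.4% CCAAT, 14.7% TEAD, 13.6% TATAAA, 7.81% AP-1, 1.63% a CArG box and 22.9% an AT-rich match. GC content was 59.3% for Cav1, 64.3% for Cav2, 58.0% for Cav3, 66.7% for Cavin1 and 43.3% for Cavin2, where the median window had 52.7%. The windows of Cav1, Cav2 and Cavin1 held 13, 16 and 17 CpG dinucleotides, against 6 in Cav3 and 4 in Cavin2 and a median of 7. A match describes the letters in these windows and is no evidence of binding.

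The libraries differed in depth. Knockdown 1 to 3 held 50543, 51279 and 41629 peaks, and control 1 to 3 held 51330, 33248 and 52091. Knockdown 3 and control 2 were the shallowest, with a median of 8 tags (reads piled up at a peak's summit, recovered from the authors' fold and p) against 11 in each of the others. These libraries measure DNA accessibility, so they hold no check of Arid3a RNA. At the Arid3a gene window, peaks covered 6818, 7387 and 4797 bases in knockdown and 7113, 4969 and 6414 bases in control libraries, and the groups overlapped. Smooth muscle genes were open in part. Of 5 smooth muscle markers with a promoter entry, Acta2 and Smtn had a start-site peak in 6 of 6 libraries, Cnn1 in 4, Lmod1 in 1 and Des in 0. No start-site peak was called in any library for the 6 skeletal and cardiac muscle, 4 adipocyte and 2 epithelial markers with an entry. Of the 3 endothelial markers with an entry, Kdr had one in 2 libraries, Tek in 1 and Tie1 in 0. Of the 3 leukocyte markers, Cd68 had one in 5 libraries, 3 knockdown and 2 control, and Ptprc and Cd3e in 0. Of the 2 fibroblast markers, Pi16 had one in 1 library and Pdgfra in 0.

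Of the 60 regions around the caveola coat genes, 17 (28.3%) were open in 6 of 6 libraries, 23 (38.3%) in 1 library, and the other 20 in between. Over all 85174 regions, 24.4% were open in 6 of 6 and 33.5% in 1 library. The member regions open in 6 of 6 had a median of 19 summit tags, against 5 tags in those of 1 library. Of 5 member regions called in 5 libraries, 4 lacked a peak only in control 2 and 1 only in knockdown 3, the shallowest libraries of their groups. Over all regions called in 5 libraries, 57.3% lacked control 2. Of 8 member regions called in 4 libraries, 3 lacked a peak in both knockdown 3 and control 2. The matching shares over all regions, for knockdown 3 alone and for both libraries, were not counted. Cav1 had 17 regions, Cav2 16, Cav3 5, Cavin1 17, Cavin2 7 and Cavin3 11. Cav1 and Cav2 are neighbours on chromosome 6 and share 13 of these regions.

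**Figure D1:**
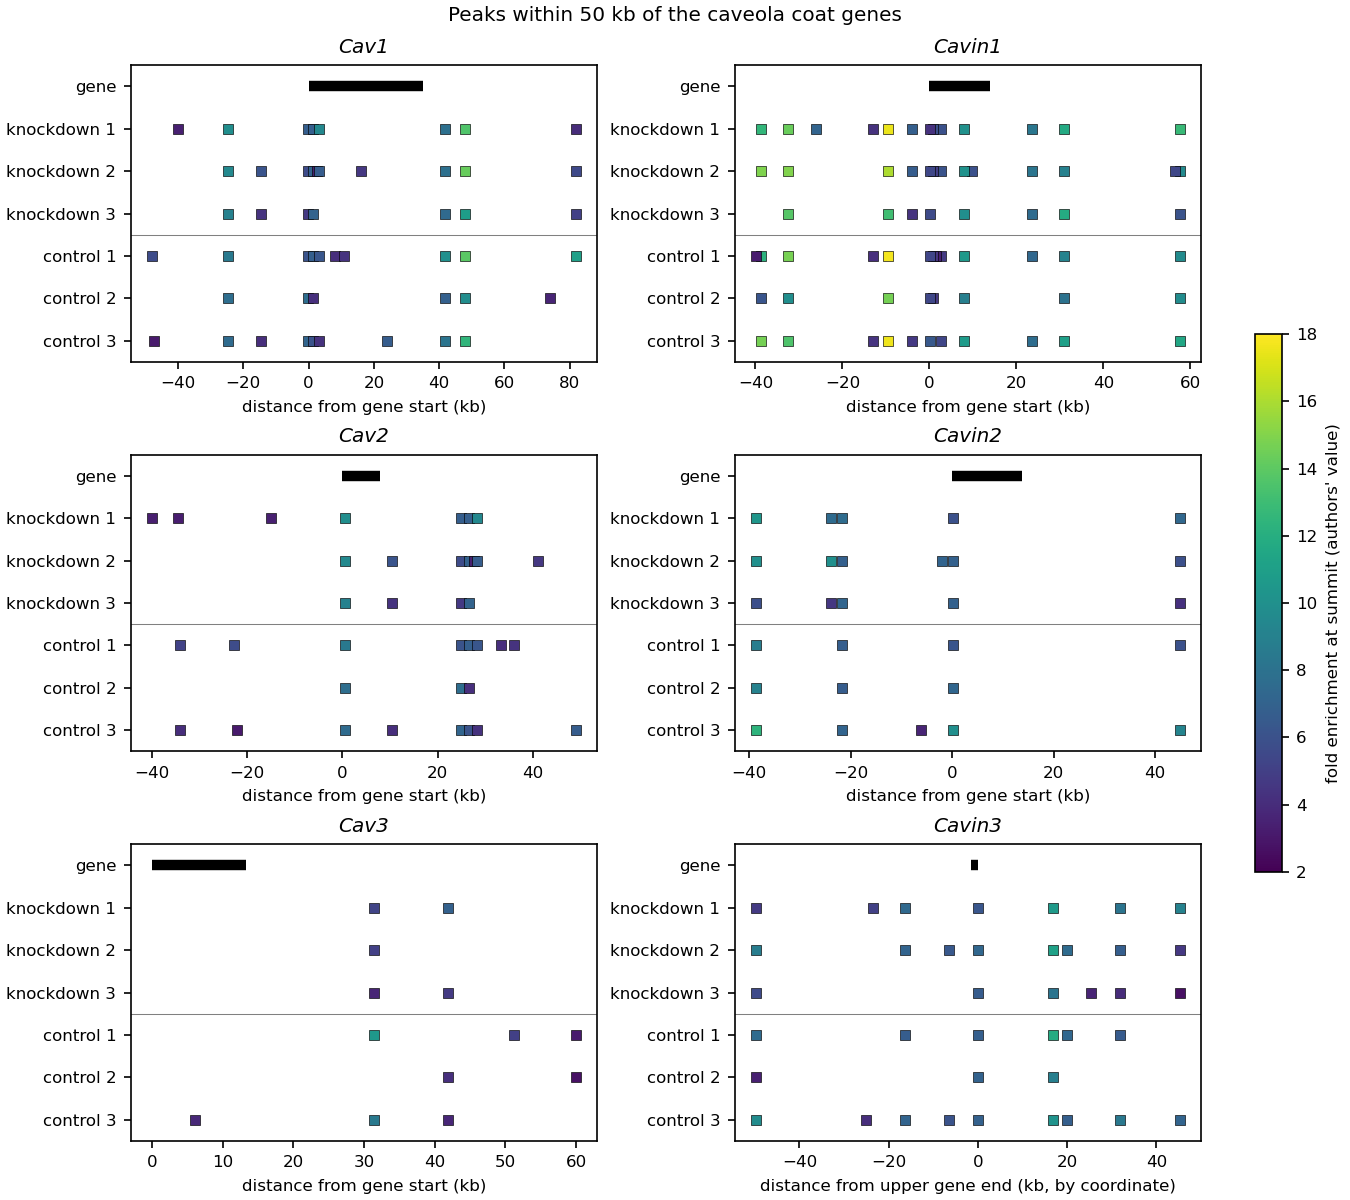
Peaks around the 6 caveola coat genes by library. Each panel is a gene, the x axis is the distance of a region's centre in kb from the gene start (from the upper gene end for Cavin3), each row is a library and colour is the authors' fold enrichment, the squares are not to scale and the black bar is the gene body. Columns filled in all 6 rows are the 17 regions open in every library, and those shared by Cav1 and Cav2 are drawn in both panels. Cav3 has none of them, and the Cavin2 panel has 1 column 23.7 kb upstream filled in the 3 knockdown rows only.

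The share of each library's peaks that lay in these windows was similar in knockdown and control libraries with the full lists. It was 0.0732%, 0.0741% and 0.0673% in knockdown 1 to 3 and 0.0740%, 0.0662% and 0.0729% in control 1 to 3. The means were 0.0715% ± 0.00372 in knockdown and 0.0710% ± 0.00426 in control libraries (SD, n = 3 each), a difference below either SD. The lowest shares were those of the 2 shallowest libraries. The difference, 0.000474 percentage points with the full lists, was 0.00501 with lists of equal length. That is above either SD of the full lists, and no SD was computed for the cut lists. The difference turned negative with a −log10 q of at least 5 (−0.00249), in gene bodies alone (−0.0035) and at 10 kb per side (−0.000741). It was also negative without control 2 (−0.00197), knockdown 1 (−0.000367) or knockdown 2 (−0.000817). In bulk libraries such as these, open chromatin in fewer cells and less open chromatin per cell cannot be told apart.

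Start sites were open in every library for 4 of the 5 members with a promoter entry, and in none for Cav3. Cav1, Cav2, Cavin1 and Cavin2 had a peak that overlapped the printed window in 6 of 6 libraries, though not always the start base itself. Across 17491 genes with an entry, 31.8% were open in 6 of 6 and 46.4% in 0 of 6. No member start was open in 1 group alone, against 26 knockdown-only and 28 control-only starts over all genes.

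**Figure D2:**
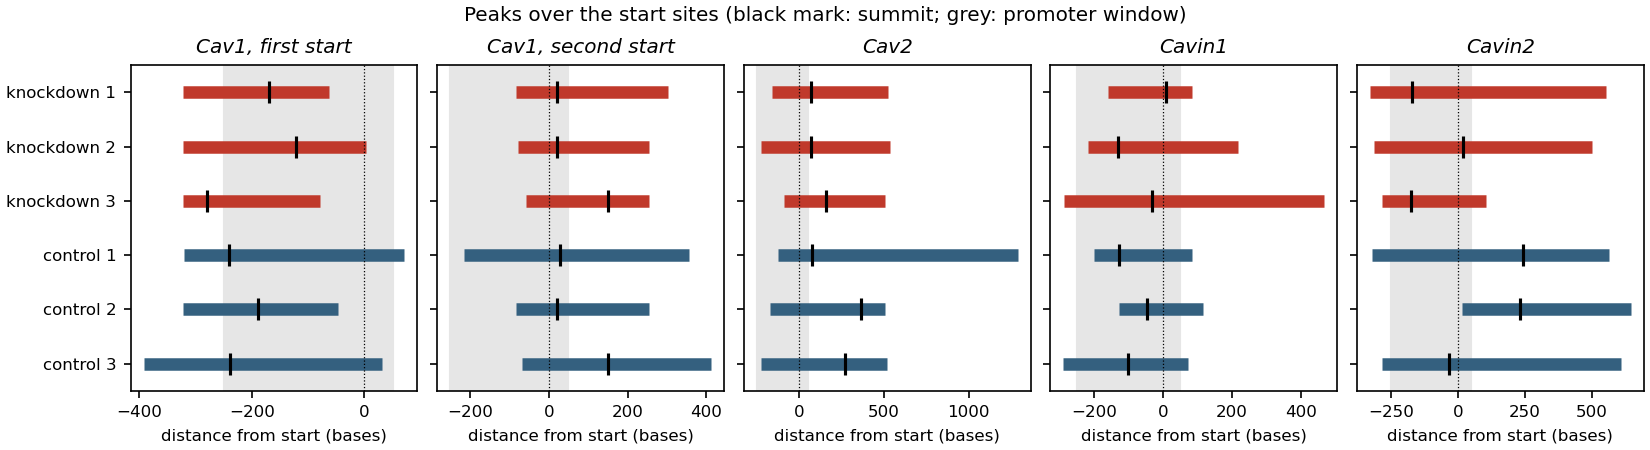
Peaks over the open start sites by library. The x axis is the distance in bases from the start in the direction of transcription, with the start at 0, bars are peaks (red knockdown, blue control), black marks are summits and grey is the 300-base promoter window. All 6 libraries have a bar that overlaps the grey window at each start. At the upstream Cav1 start the bars of knockdown 1, knockdown 3 and control 2 end before the start, at −63, −79 and −47. At Cavin2 the bar of knockdown 3 ends 104 bases after the start and that of control 2 begins 14 bases after it.

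Among the caveolins, Cav1 had open chromatin at both annotated starts. The region at the upstream start, chr6:17305943-17306406, had fold enrichments of 6.73, 5.65 and 4.63 in knockdown 1 to 3 and 6.07, 7.68 and 7.18 in control 1 to 3. These are the authors' values for each peak over the local background of its own library, so they describe a list and measure no change between lists. Knockdown 3 had the lowest value and the groups overlapped. Its peak summits lay from −280 to −122 bases of the start in knockdown and from −241 to −189 in control libraries. The region at the downstream start, chr6:17307424-17308052, had 6.81, 6.99 and 7.06 in knockdown and 6.81, 4.16 and 6.09 in control libraries. Its lowest value came from control 2, and knockdown 1 and control 1 were equal at this rounding. The best enriched region of the Cav1 window lay 12.5 kb downstream of the gene, at chr6:17353828-17354657. It had a fold enrichment of 13.6, 14.3 and 10.8 in knockdown and 13.9, 9.76 and 12.5 in control libraries, between the 91.3 and 95.9 percentile of each library's own peaks. The 2 shallowest libraries gave the 2 lowest values, and the groups overlapped. A further region 6.50 kb downstream, chr6:17347833-17348439, had 7.84, 7.84 and 7.47 in knockdown and 9.97, 6.84 and 8.13 in control libraries, again with overlap. A region 46.6 kb downstream, chr6:17387923-17388456, was called in 3 of 3 knockdown libraries (3.96, 5.51 and 5.03) and in control 1 only (11.1).

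Cav2, upstream of Cav1 on the same strand, had its best enriched region among those open in 6 of 6 libraries at its own start, chr6:17280957-17282474. The fold enrichment there was 9.87, 9.51 and 8.95 in knockdown 1 to 3 and 8.46, 7.69 and 7.56 in control 1 to 3. Each knockdown value lay above each control value. The summit held 20, 22 and 14 tags in knockdown and 20, 13 and 18 tags in control libraries, and these overlapped. The peak was 763 bases wide at most in the knockdown libraries, while that of control 1 was 1416 bases wide and reached 1289 bases past the start. The other 2 regions of the Cav2 window open in 6 of 6 libraries were the Cav1 starts. Of 17 member regions open in 6 of 6, 2 had all knockdown fold enrichments above all control ones, this region and the downstream Cav1 start, and 0 had them below. Over all 20742 regions open in 6 of 6, the same counts gave 4.00% above and 1.71% below. At the Cav1 start the gap between knockdown 1 and control 1 is under the rounding of the values printed above.

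Cav3, the muscle caveolin, had no region open in 6 of 6 libraries and no start-site peak in any of them. Its gene body (chr6:112459505-112472872) held a peak in control 3 alone, with a fold enrichment of 3.79. The region of its window called in the most libraries, chr6:112490672-112491149, lay 17.8 kb downstream of Cav3. This region overlapped Oxtr, the oxytocin receptor gene, which shares the Cav3 window. It had 5.24, 5.04 and 3.66 in knockdown 1 to 3, 10.5 in control 1, no peak in control 2 and 8.49 in control 3. Both called control values lay above the knockdown values, and the library without a peak was the shallowest.

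Of the cavins, Cavin1, whose product is needed for the coat, had the most regions open in every library, with 6. The strongest lay 9.30 kb upstream of its start, at chr11:100979913-100980403, with fold enrichments of 17.5, 16.0 and 13.1 in knockdown 1 to 3 and 17.7, 14.7 and 17.6 in control 1 to 3. In every library it stood between the 97.8 and 99.7 percentile of that library's peaks, with 27 to 46 summit tags. The groups overlapped and the lowest values were those of the 2 shallowest libraries. A region 32.4 kb upstream, chr11:101002994-101003371, had 14.4, 15.0 and 13.8 in knockdown and 14.7, 9.85 and 13.6 in control libraries. The third by enrichment, chr11:100939142-100940094, covered a start of Stat3, a signalling transcription factor gene that shares the window. It had 11.7, 8.99 and 11.8 in knockdown and 9.17, 8.03 and 11.1 in control libraries. The Cavin1 start itself, chr11:100970149-100970905, was lower in fold enrichment, with 4.31, 5.43 and 5.58 in knockdown and 5.34, 5.40 and 6.41 in control libraries. By fold it stood between the 13.1 and 45.2 percentile of its library's peaks. Its summits held 17, 26 and 17 tags in knockdown and 24, 14 and 30 in control libraries. The library medians were 8 or 11 tags, so the low fold does not mean few tags. A region 3.73 kb upstream of the start, chr11:100974351-100974809, was called in 3 of 3 knockdown libraries at 6.78, 6.66 and 4.32 and in control 3 alone at 4.63. How many of all regions were called in 3 knockdown libraries and 1 control library was not counted.

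Cavin2, for a cavin that bends membrane, held the only region of these windows found in all libraries of 1 group and none of the other. It was chr1:51265142-51265452, 23.7 kb upstream of the start and inside the long non-coding RNA gene 9330175M20Rik, which also spans Cavin2. The fold enrichment was 7.54, 9.94 and 4.54 in knockdown 1 to 3, and no peak was called in control 1 to 3. The summits held 12 (95% exact Poisson interval 6.20 to 21.0), 18 (10.7 to 28.4) and 6 tags (2.20 to 13.1) in knockdown 1 to 3, and these intervals cover counting error only. Tags are recovered only for called peaks, so those of the control libraries here are unknown and the intervals compare no groups. The smallest −log10 q was 3.21. The nearest control peaks lay 1659 to 1928 bases away, in a neighbouring region open in 6 of 6 libraries (chr1:51267111-51267761). Knockdown-only regions, open in 3 of 3 knockdown and 0 of 3 control libraries, were 1 of 60 (1.67%) in the member windows and 0.432% of all regions. Control-only regions were 0 of 60 against 0.277% of all regions. A single region in 3 against 3 libraries cannot go below an exact p of 0.1, so none was tested. With peaks of a −log10 q of at least 5 only, this region was left in 2 of 3 knockdown and 0 of 3 control libraries.

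Of the other 6 Cavin2 regions, 3 were open in every library, 1 was missing only in control 2, and 2 were called in 1 library each, knockdown 2 and control 3. The neighbouring region had 7.61, 6.86 and 7.14 in knockdown and 6.75, 6.63 and 7.08 in control libraries. The region 38.4 kb upstream, chr1:51250213-51250725, had 10.4, 9.96 and 5.87 in knockdown and 8.70, 9.12 and 12.3 in control libraries. The start, chr1:51288798-51289771, had 5.97, 6.94 and 6.92 in knockdown and 6.24, 7.23 and 9.90 in control libraries. In these 3 the groups overlapped.

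**Figure D3:**
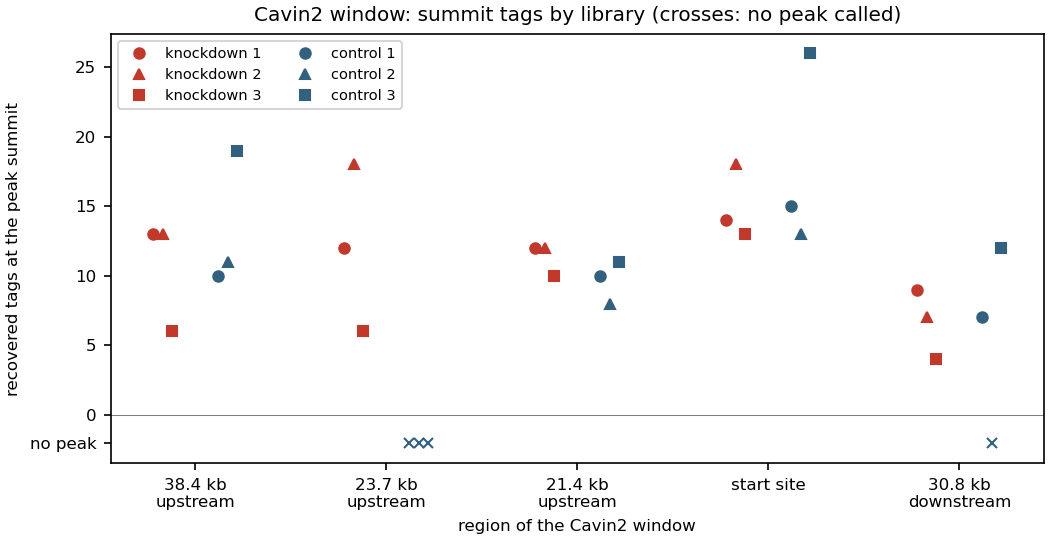
Summit tags in the 5 regions of the Cavin2 window called in at least 3 libraries. The y axis is the recovered number of tags at the peak summit, red points are knockdown and blue points control libraries (circle, triangle and square for replicates 1, 2 and 3), and crosses mark libraries with no called peak. The region 23.7 kb upstream has 6 to 18 tags in the knockdown libraries and no control peak, while both groups have peaks in the 21.4 kb upstream region.

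Inside the Cavin2 gene body, peaks covered 555, 501 and 105 bases in knockdown 1 to 3 and 565, 632 and 611 bases in control 1 to 3. Each knockdown value was below each control value, by 10 bases between knockdown 1 and control 1. All of these bases belong to the start-site peak, which ended 104 bases past the start in knockdown 3. The means were 387 ± 246 in knockdown and 603 ± 34.3 bases in control libraries (SD, n = 3 each; exact two-sided permutation p = 0.1, the smallest possible, Benjamini-Hochberg adjusted p = 1 over all genes). Of the 6 members, 1 had all knockdown gene-body values below all control values and 0 above, where 2.28% of all genes were below and 2.12% above.

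Cavin3 has no entry in the promoter table. Its gene (chr7:105480616-105482197) had a region at its upper end, chr7:105481324-105482883, in 6 of 6 libraries, with 6.25, 7.30 and 6.57 in knockdown 1 to 3 and 6.79, 6.96 and 6.92 in control 1 to 3. The region also covers a start of the long non-coding RNA gene Gm36847. The strongest Cavin3 region lay 16.7 kb above the gene by coordinate, at chr7:105498886-105499292, with 10.6, 11.1 and 8.17 in knockdown and 11.8, 8.85 and 10.2 in control libraries. The third region open in 6 of 6 libraries, chr7:105432032-105432990, overlapped Cckbr, a cholecystokinin receptor gene. It had 4.69, 8.73 and 5.60 in knockdown and 7.51, 3.42 and 9.69 in control libraries. The groups overlapped in all 3 regions. A region 45.0 kb above the gene by coordinate was chr7:105527166-105527786. It was called in 3 of 3 knockdown libraries at 9.03, 4.60 and 2.67 and in control 3 alone at 7.10.

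Over whole windows, the libraries of the groups overlapped for every member in covered length with the full lists. In Cav1, peaks covered 3285, 4244 and 2812 bases in knockdown 1 to 3 and 4897, 2860 and 4050 bases in control 1 to 3. In Cav2 they covered 2455, 2581 and 1367 bases in knockdown and 3573, 1294 and 3423 in control libraries. In Cav3 they covered 510, 286 and 421 bases in knockdown and 758, 476 and 956 in control libraries. The knockdown means of the 3 caveolin windows were below the control means by less than 1 control SD in Cav1 and Cav2, and by more in Cav3, with overlap in all 3. In Cavin1 peaks covered 4378, 4379 and 3735 bases in knockdown and 4496, 3323 and 4441 in control libraries. In Cavin2 they covered 1862, 2391 and 1538 bases in knockdown and 1844, 1208 and 2383 in control libraries. In Cavin3 they covered 3118, 3922 and 2298 bases in knockdown and 2660, 1589 and 3546 in control libraries. The cavin windows also overlapped between groups, with differences below the control SD.

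The differences, knockdown minus control, were −489 bases for Cav1 (exact two-sided permutation p = 0.6), −629 for Cav2 (p = 0.6, exact), −324 for Cav3 (p = 0.2, exact), 77.3 for Cavin1 (p = 1, exact), 119 for Cavin2 (p = 0.7, exact) and 514 for Cavin3 (p = 0.5, exact), each with an adjusted p of 1. The direction turned to the negative for Cavin2 and Cavin3 with windows of 10 kb per side, at −97.3 and −74.7 bases. It also turned for Cavin1 and Cavin2 without control 2 (−304.5 and −183 bases) or without knockdown 2 (−30.2 and −112 bases), and for Cavin1 without knockdown 1 (−29.7 bases). Single libraries also set the size for the others. Cav1 was −8 bases without control 1, Cav2 −224 without control 1, and Cavin3 9.67 without control 2 and 15 with lists of equal length. Cav1 was −1026.5 and Cav2 −1364 bases without control 2, and Cav3 ran from −451 to −211 when 1 library was left out. The median over the 6 members was −123.5 bases, against 0 over all 21883 genes. By mean, 3 members were higher in knockdown and 3 lower, where 9641 of all genes were higher and 8946 lower. Cav1 and Cav2 share 13 regions, so their differences are not independent. Of the members, 0 had all knockdown libraries above and 0 below all control libraries, where 1.91% of all genes were above and 1.69% below. With lists cut to equal length, Cav3 no longer overlapped, with 188, 0 and 229 bases in knockdown and 345, 476 and 461 bases in control libraries (exact two-sided permutation p = 0.1), where 4.13% of all genes had knockdown below control. Without control 2, all knockdown values lay below the 2 other control values in Cav2, Cav3 and Cavin1, where 17.4% of all genes did. No gene reached an adjusted or an unadjusted p below 0.05, since 3 against 3 libraries cannot go below 0.1, and 788 genes stood at that value by the exact permutation test.

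**Figure D4:**
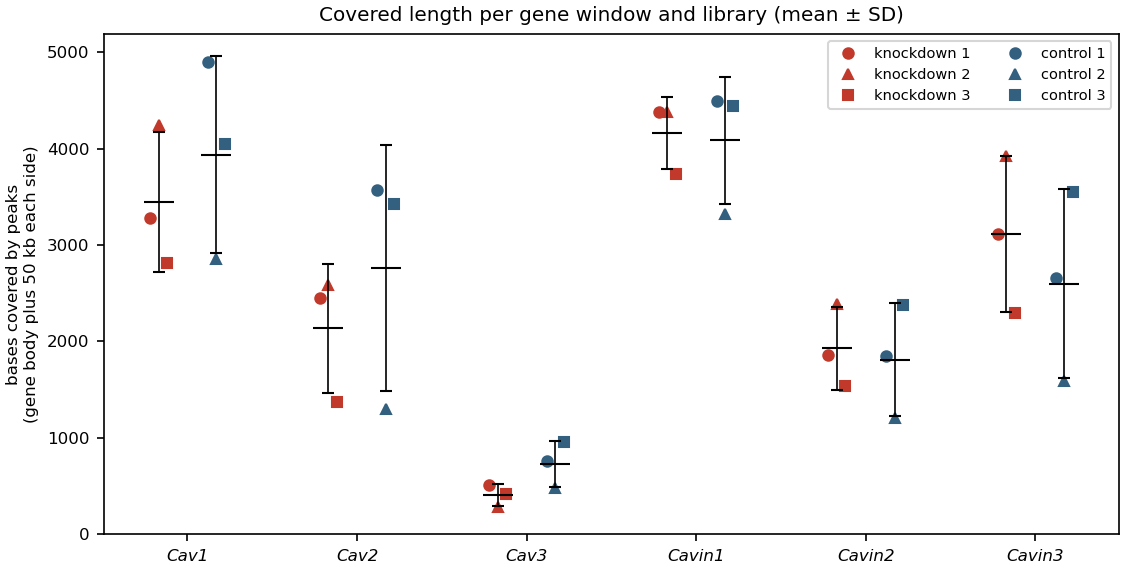
Bases covered by peaks in each gene window (gene body plus 50 kb each side) by library. Points are libraries (red knockdown, blue control; circle, triangle and square for replicates 1, 2 and 3), and black lines are mean ± SD of 3 libraries. With the full lists shown, the groups overlap in all 6 windows, with Cav3 lowest at 286 to 956 bases.

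The number of peaks gave the same picture. Windows held 8, 10 and 7 peaks in knockdown and 10, 6 and 9 in control libraries for Cav1. Cavin1 held 13, 13 and 8 in knockdown and 13, 8 and 11 in control libraries. Cavin2 held 5, 6 and 5 peaks in knockdown and 4, 3 and 5 in control libraries, with overlap at 5 peaks (exact two-sided permutation p = 0.3, adjusted p = 1). Cav2 held 3 to 8 peaks, Cav3 1 to 3 and Cavin3 3 to 9 over the 6 libraries, with exact p-values of 1, 0.3 and 0.9. With the full lists 0 members had groups that did not overlap, where 1.33% of all genes had all knockdown counts above and 0.507% below all control counts. With lists of equal length, Cavin2 held 5, 5 and 5 peaks in knockdown and 3, 3 and 4 in control libraries (exact two-sided permutation p = 0.1), and 1.38% of all genes had knockdown above control. Cavin2 also stood above without control 3, as did 4.27% of genes, and Cav2 and Cav3 stood below without control 2, as did 6.23%.

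By mean covered length over the 6 libraries, the order was Cavin1, Cav1, Cavin3, Cav2, Cavin2 and Cav3. Cavin1 stood at the 90.3 percentile of all genes, Cav1 at 86.0, Cavin3 at 74.1, Cav2 at 65.9, Cavin2 at 53.6 and Cav3 at 25.8, where the median gene had 1721 bases. Neighbours in this order overlapped in their ranges over libraries, except that Cav3, at 956 bases or fewer, lay below the lowest Cavin2 library at 1208 bases. Windows differ in length with the gene body, from 102 kb for Cavin3 to 135 kb for Cav1. They also count regions at neighbouring genes, such as Stat3 and Atp6v0a1 in the Cavin1 window, and Cav1 and Cav2 share 13 regions. The genes with the most similar covered length per library were Dhrs3 and Foxl1 for Cav1, Syk and 4930544D05Rik for Cav2, Reps2 and Tmem81 for Cav3, Txnrd1 and Slc2a1 for Cavin1, Syde2 and Pisd for Cavin2, and Oacyl and Pik3r6 for Cavin3. Their mean absolute differences from the member, over 6 libraries, ran from 50.8 bases (Reps2) to 172 bases (Foxl1).

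Of 14 other genes of caveolae and related membrane domains, 1 had groups that did not overlap in covered length. Cavin4, the muscle cavin, had 0 bases in knockdown 1 to 3 and 290, 232 and 665 bases in control 1 to 3 (exact two-sided permutation p = 0.1, adjusted p = 1). Its 4 regions were each called in 1 or 2 control libraries, with fold enrichments of 3.20 to 6.84 and a −log10 q of 1.74 to 7.33. Of the 8 skeletal and cardiac muscle markers, 1 was also lower without overlap, the muscle stem cell factor Pax7, with 459, 693 and 245 bases in knockdown and 974, 869 and 1114 bases in control libraries. By mean covered length, 5 of these 8 markers were higher in knockdown and 3 lower, with a median difference of 92.3 bases. Of the other markers, 1 had groups that did not overlap, the adipocyte gene Fabp4, with 529, 906 and 201 bases in knockdown and 174, 0 and 0 bases in control libraries. Their part in the result for Cavin4 was not tested. Of all genes, 1.69% had all knockdown values below all control values and 1.91% had them above. In the other 13 the groups overlapped. These were the membrane-neck ATPases Ehd1, Ehd2 and Ehd4, the membrane-bending Pacsin1, Pacsin2 and Pacsin3, the scission GTPase Dnm2, the receptor Ror1, the actin linker Flna, the kinases Abl1 and Src, and the flotillins Flot1 and Flot2. The median difference over the 14 was −125.8 bases, with 6 means higher and 8 lower in knockdown. Of the 12 with a promoter entry, Ehd4, Pacsin2, Dnm2 and Ror1 were open at the start in 6 of 6 libraries, and Pacsin1 and Src in 0. Pacsin2 held 1 knockdown-only and 1 control-only region among its 32, and the other 13 genes held neither.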

How the data were processed

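ATAC-seq peaks were analysed in 3 libraries of mouse vascular smooth muscle cells given siRNA against Arid3a and 3 given a negative control. The submitters' processing notes name Bowtie2, Picard, MACS2 and mm10. Not given in the sources used here are versions, duplicate handling, any shift to the Tn5 cut site and the background for calling. Kept duplicates would raise tag numbers, and a missing shift would move summits by a few bases. The authors deposited 1 peak list per library, with positions and summits. The deposited fold enrichment is a ratio at the summit over the local background within that library. The deposited −log10 p and −log10 q belong to each peak, and the deposited score was not used beyond a check of the format.

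Peaks were merged across libraries at 1 base, and a library was present where 1 of its peaks overlapped. Windows were gene bodies of the RefSeq table of GRCm38.p6 with 50 kb per side. Start sites came from the RefSeq promoter table. Covered bases and peak numbers were tested for all 21883 genes by exact two-sided permutation over 20 relabellings, smallest p 0.1, with Benjamini-Hochberg adjustment (Python 3.11.15, numpy 2.4.6, pandas 2.3.3, scipy 1.17.1). Summit tags were the whole number from 1 to 600 whose Poisson −log10 p, with the background that the fold implies, matched the deposited one within 0.001, and matched at least 99.996% of peaks per library. The total reads per library are unknown. Scripts were tested on simulated data. The members, gene lists, motifs and tests were chosen with earlier results of these data known.

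Regions given in full were those at a member's start, those in all 3 libraries of 1 group and none of the other, and per member the 3 regions open in 6 of 6 libraries with the highest median fold. Regions outside this rule were chosen after their values were seen. They were the Cav3 regions and those 46.6 kb downstream of Cav1, 3.73 kb upstream of Cavin1 and 45.0 kb above Cavin3. Alternatives were narrower windows, a −log10 q of 5, lists of equal length, presence by 50% cover, merging at 100 bases, each library left out and a replicate block. Other genomic sequence was not used here.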

Additional observations from a re-analysis of the deposited data

How the results depend on the processing

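With windows of 10 kb per side, the covered length turned to −97.3 bases for Cavin2 and −74.7 for Cavin3 (knockdown minus control), and the peak number to 0.333 for Cav2 and −0.333 for Cavin3. There were then 26 regions, 9 in 6 of 6 libraries and 0 knockdown-only. In gene bodies alone the covered length was −216 bases for Cavin2 and −9 for Cavin3 and the Cavin3 peak number −0.333, with 18 regions, 7 in 6 of 6 and 0 knockdown-only. Fewer regions follow from narrower windows. With a −log10 q of at least 5, the Cavin3 peak number was −0.333 and 0 regions were knockdown-only. With lists of equal length (33248 peaks), the peak number was 0.333 for Cav2 and −0.667 for Cavin3, Cav3 (−288 bases covered) and Cavin2 (1.67 peaks) no longer overlapped (p = 0.1, exact), Cavin1 and Cavin3 differed by 248.7 and 15 bases, 2 regions were knockdown-only, those of Cavin2 and 3.73 kb upstream of Cavin1, and the share of peaks differed by 0.00501 percentage points, against 0.000474 with full lists. Of all regions of these lists, 0.497% were then knockdown-only and 0.426% control-only. Where peaks had to cover 50% of a region, 11 regions were in 6 of 6. The cause of these shifts was otherwise not tested. Merging at 100 bases moved no count past 1.5 times.

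Leaving out 1 library at a time, the covered length difference ran from −1026.5 to −8 for Cav1, −1364 to −224 for Cav2, −451 to −211 for Cav3, −304.5 to 292 for Cavin1, −183 to 404 for Cavin2 and 9.67 to 988 for Cavin3 and the peak number difference ran from −2 to 0.667 for Cav2, −0.667 to 2.33 for Cavin1 and −1 to 2 for Cavin3. Knockdown-only regions numbered 1 to 3, with 2 without control 1 and 3 without control 3, and control-only ones 0 to 1, with 1 without control 2 or control 3. Fewer libraries have to agree in these counts.

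The deviations of libraries of equal replicate number correlated at 0.0298, −0.0888 and −0.0801, and those of unequal number at −0.0564 to 0.104. The main tests did not treat the numbers as pairs. With 3 libraries per group, these values cannot show whether same-numbered libraries share a batch. With a replicate block the differences, −489, −629, −324, 77.3, 119 and 514 bases for Cav1, Cav2, Cav3, Cavin1, Cavin2 and Cavin3, are the same by arithmetic. Exact sign-flip p-values were 0.25 to 1, where 0.25 is the smallest possible, so this fit could change no call and says nothing about stability. Peaks near the calling threshold hold few tags. A peak missing in knockdown 3 or control 2 may not have been detectable at their depth, which was not tested.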
